A study of Mus musculus with 6 samples.

Results

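The genes described here are 10 members of the TGF-beta pathway in mouse CD4 T cells: the ligand gene Tgfb1, the receptor genes Tgfbr1 and Tgfbr2, the signal transducers Smad2 and Smad3, the inhibitors Smad7, Skil and Tgif1, and the response genes Itgae and Tgfbi. They were found by gene symbol in the platform annotation, which names 18193 genes in all. Where a gene has several probe sets, the brightest by mean log2 signal represents it. The 10 genes have 24 probe sets together, and the other 14 served as a check. All animals were C57BL/6 mice, 10 to 11 weeks of age, that carried loxP-flanked Fur alleles (Fur flox/flox). Controls had no Cre, and the Furin cKO mice (conditional knockout) also carried CD4 cre, a recombinase driven by the Cd4 promoter, which acts in developing thymocytes and so in CD8 as well as CD4 cells. From each genotype came naive CD4+ CD62L+ CD44- cells, activated in vitro for 2 days on plate-bound antibodies to CD3 and CD28 (5 µg/ml of each), freshly sorted CD4+ CD62L- CD44+ memory cells, and freshly sorted CD4+CD25+FoxP3+ regulatory cells. Each of the 6 combinations was measured on 1 array. The labels do not say how many animals gave each sample, or whether 1 animal gave several.

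TGF-beta 1 is made as a precursor that furin and related convertases cut in the Golgi. The mature ligand stays bound to its own propeptide until integrins or proteases set it free. It then brings the type II receptor (Tgfbr2) and the type I receptor (Tgfbr1) together, and the type I receptor phosphorylates Smad2 and Smad3, which enter the nucleus with Smad4. Smad7 blocks the receptor, and the corepressors SnoN (encoded by Skil) and Tgif1 hold Smad target genes down. In CD4 T cells the pathway supports regulatory cells, induces the integrin CD103 (Itgae) and restrains interferon-gamma and cytotoxic genes. The question the series addresses is what loss of furin does to these cells.

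Values are MAS5 signals on a linear scale. Signals under 47.6, the 40th percentile over all arrays, were treated as unmeasured and are called below the floor. The activated arrays stood apart from the fresh ones: 49.4% and 49.8% of their probe sets reached the floor, against 62.6% to 67.4% on the other 4 arrays. The bioB spike-in, a control for hybridisation, averaged 754 and 852 on the activated, 4930.3 and 4078 on the memory, and 2503 and 2213 on those of regulatory cells. Beta-actin gave a 3'/5' ratio, which rises with RNA breakdown, of 1.93 and 1.56 on the memory arrays (control first, here and below) and of 1.22 to 1.36 elsewhere. Furin itself read 515.8 and 468.3 in activated cells, 647.4 and 2203 in memory cells, and 547.2 and 410.0 in regulatory cells. The memory array labelled Furin cKO was thus the brighter for the targeted gene. No source used here says whether the probe set lies in the deleted exons, and every genotype direction below rests on the labels as deposited. T cell markers were bright on all arrays, with a summed signal of 35368 to 91927 over 6 genes. Of the 7 markers of regulatory cells, Ikzf2, Il2ra, Tnfrsf18, Nrp1 and Izumo1r were brightest on the regulatory arrays. Ikzf2, for example, read 13901 and 15968 there and 9419 and 8213 on the memory arrays. Ctla4 read 11033 and 10619 on the regulatory arrays, much as on the activated ones (11924.6 and 10316.5), and 3339.9 and 2934 on the memory arrays. Foxp3, however, whose only probe set read 50.4 and 33.8 on the regulatory arrays, read 1358 and 1116 on the memory arrays. The defining marker of the regulatory label was therefore near or below the floor on the arrays that carry it.

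The pathway genes differed most between the activated cells and the fresh populations. In activated cells 8 of the 10 genes were lower than in memory cells at an adjusted p under 0.05, led by Itgae (at least 32.8-fold), Smad3 (17.5-fold), Tgfbr2 (6.53-fold) and Tgfb1 (4.69-fold). Against regulatory cells 6 of the 10 were lower, namely Itgae, Smad3, Tgfbr2, Tgfb1, Tgfbr1 and Skil, and 0 were higher in either comparison. The sizes moved with the processing while the calls of these 4 held in each processing alternative: against memory cells the Smad3 difference went from -4.13 to -1.40 on the log2 scale with the median of probe sets, that of Tgfbr2 from -2.71 to -1.72 with their mean, and the bound of Itgae from -5.04 to -3.43 with the higher floor. The test was limma with population and genotype as factors on log2 signal, with Benjamini-Hochberg adjustment over 15811 genes. It has 2 arrays per population and 2 residual degrees of freedom, so the error in its p-values is the unevenness of the genotype difference across populations, and animals do not enter it. The background was large: 26.9% of all genes were lower and 17.3% higher in activated than in memory cells, 44.3% in all, and 26.5% were lower and 18.1% higher than in regulatory cells. With quantile normalization 3249 genes were higher and 3071 lower than in memory cells, in place of 2743 and 4260, and 3492 higher and 2835 lower than in regulatory cells, in place of 2865 and 4193. The median of all genes then moved from -0.21 and -0.23 to 0.00, beside medians of -1.57 and -1.88 for the 10 pathway genes under the deposited scaling. Activation, culture, the naive origin of the activated cells and any array batch, which the labels do not name, cannot be told apart here. No array of unactivated naive cells is in the series. In bulk RNA, fewer cells of a type and less RNA per cell cannot be told apart either.

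**Figure D1:**
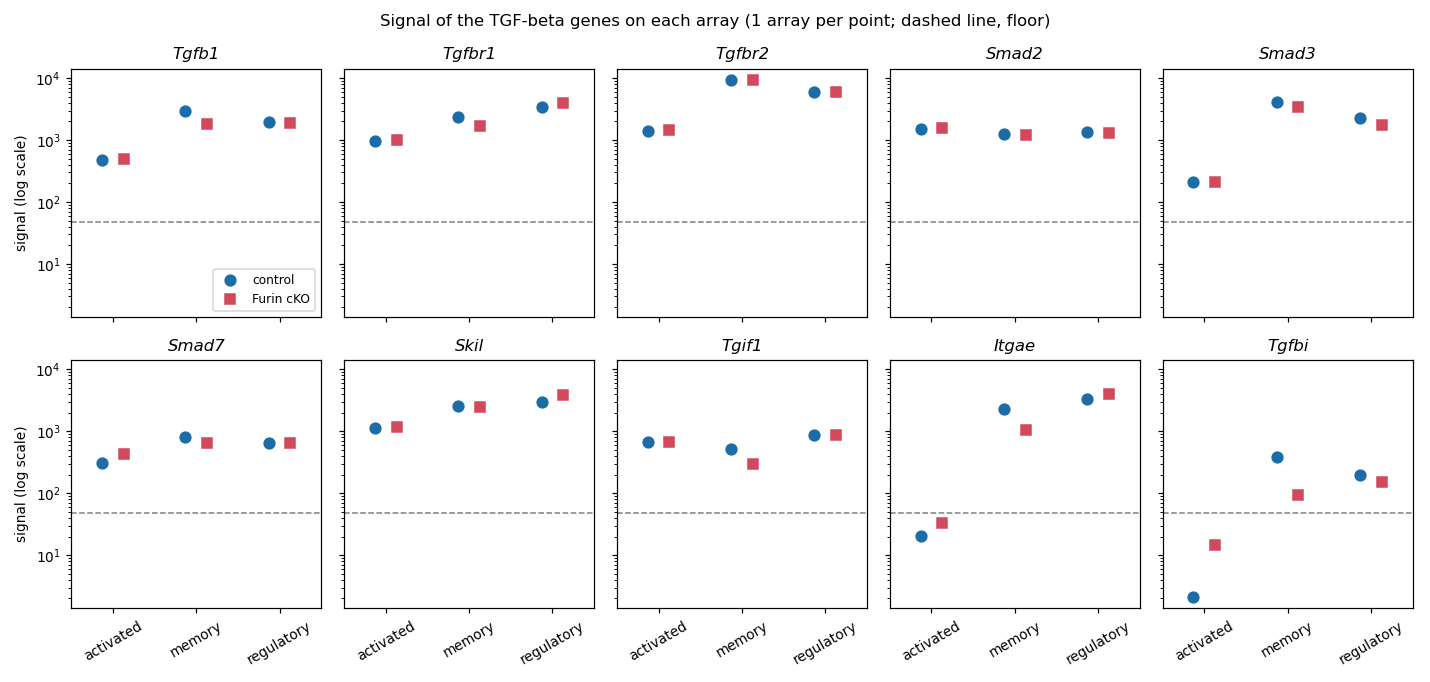
Signal of each TGF-beta gene on each array (vertical axis, MAS5 signal, log scale) by population (horizontal axis), with circles for control and squares for Furin cKO, 1 array per point. Both activated points lie lowest for Tgfb1, both receptors, Smad3, Smad7, Skil, Itgae and Tgfbi, and those of Itgae and Tgfbi lie below the floor of 47.6 (dashed line).

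The ligand gene Tgfb1 read 482.0 and 494.0 in activated cells, 2932 and 1788 in memory cells, and 1979.7 and 1919.5 in regulatory cells. The activated arrays were the lowest, and the memory and regulatory ranges overlapped. In log2 signal activated cells were differed from memory cells by -2.23 (limma SE 0.24, 95% interval from -2.88 to -1.58, adjusted p = 0.00428), and they were 3.99-fold lower than regulatory cells (adjusted p = 0.00569), with both arrays lower in each case. Both calls were lost in some fits that left out 1 array, namely the control activated or either regulatory array. The differences in those fits lay between -2.23 and -1.79. Against regulatory cells the calls of all genes were lost without a regulatory array, so that loss is not particular to Tgfb1. A further Tgfb1 probe set read 90.8 and 97.8, 316.6 and 249.2, and 323.7 and 322.1, again lowest in activated cells.

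The stretches before the annotated starts of Tgfb1 and Tgfbi are shown because these are the gene of the furin substrate and the response gene with the largest genotype difference among the 10. Both are 250 bases upstream of the start in RefSeq (GRCm38.p6, plus strand), at chr7:25686752-25687001 for Tgfb1 and chr13:56609336-56609585 for Tgfbi. Capitals mark CAGAC, a short Smad recognition motif, and GGGCGG, the GC box bound by Sp1, each searched on both strands (GTCTG and CCGCCC). The 2 motifs did not overlap in these stretches.
Tgfb1: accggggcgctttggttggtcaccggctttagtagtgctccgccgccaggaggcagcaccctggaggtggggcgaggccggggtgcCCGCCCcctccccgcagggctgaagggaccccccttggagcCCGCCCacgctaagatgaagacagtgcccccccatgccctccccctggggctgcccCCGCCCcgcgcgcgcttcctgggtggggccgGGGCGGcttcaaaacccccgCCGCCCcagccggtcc
Tgfbi: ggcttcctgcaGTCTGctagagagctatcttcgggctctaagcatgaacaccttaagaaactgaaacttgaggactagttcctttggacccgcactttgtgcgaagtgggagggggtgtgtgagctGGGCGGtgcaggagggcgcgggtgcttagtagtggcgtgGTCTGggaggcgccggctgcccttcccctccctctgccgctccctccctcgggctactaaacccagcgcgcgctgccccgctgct
The Tgfb1 stretch holds 5 GC boxes and 0 CAGAC motifs, and the Tgfbi stretch holds 1 GC box and 2 CAGAC motifs. Of all 32851 promoter entries, 42.2% hold a CAGAC motif and 32.7% a GC box in the same window, so neither motif is rare. Of the 10 genes 6 have an entry in this table; Smad2, Smad7, Skil and Itgae have none.

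The receptors followed different orders in the fresh cells. Tgfbr2, the ligand-binding receptor, read 1419 and 1451 in activated cells, 9381 and 9346 in memory cells, and 5976 and 6004 in regulatory cells. The 3 pairs did not overlap, and both genotypes lay almost on top of each other in every population. Activated cells differed from memory cells by -2.71 in log2 signal (95% interval from -3.06 to -2.35, adjusted p = 0.00189) and from regulatory cells by -2.06 (adjusted p = 0.00225). The latter call was lost without either regulatory array (-2.06 in each fit), as were the calls of all genes in this contrast. Tgfbr1, the signalling receptor, read 984.5 and 989.8, 2385 and 1704, and 3446 and 3932 in activated, memory and regulatory cells. It was thus brightest in regulatory cells, where Tgfbr2 was brightest in memory cells. The activated arrays were lower, with a difference of -1.03 against memory cells (adjusted p = 0.0221) and of -1.90 against regulatory cells (adjusted p = 0.00510). The Tgfbr1 call against memory cells was lost, at adjusted p from 0.0712 to 0.158, when any array but the Furin cKO memory array was left out, and with the median of probe sets (-0.44, adjusted p = 0.315). That against regulatory cells was lost without any activated or regulatory array (differences from -2.11 to -1.68). Without a regulatory array the calls of all genes were lost in this contrast. Regulatory minus memory differences were 0.87 for Tgfbr1 (adjusted p = 0.138) and -0.64 for Tgfbr2 (adjusted p = 0.107), and neither passed.

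Of the receptor-activated Smads, Smad3 was called in both activated contrasts and Smad2 in neither. Smad3 read 212.6 and 213.5 in activated cells, 4131 and 3379 in memory cells, and 2244 and 1776 in regulatory cells, with no overlap between populations. The difference from memory cells was -4.13 in log2 signal (95% interval from -4.57 to -3.70, adjusted p = 0.00188) and that from regulatory cells -3.23 (adjusted p = 0.00202). The latter call was lost without either regulatory array (-3.13 and -3.33), as were the calls of all genes in this contrast. Of 2 further Smad3 probe sets, the brighter gave the same low place to activated cells, 15.4 and 17.9 against 133.1 and 118.6 in memory cells, but put regulatory cells highest at 238.2 and 137.4. Smad2, which responds to the same receptor, read 1508 and 1574, 1251 and 1197, and 1339.8 and 1283. Its activated minus memory difference was 0.33 (95% interval from -0.04 to 0.70, adjusted p = 0.125). The interval reaches -0.04 downward, and the spread between animals does not enter it. The shared partner Smad4 read 3113 and 3028, 3219 and 3567, and 2867 and 2525, with adjusted p = 0.525 for the same difference.

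Of the inhibitors, Smad7 and Skil were lowest in activated cells and Tgif1 in memory cells, each by its main probe set. Smad7, which blocks the receptor and is itself induced by the pathway, read 308.9 and 424.3 in activated, 821.4 and 636.4 in memory, and 637.9 and 659.2 in regulatory cells. The activated arrays were lowest, and the fresh populations overlapped. The log2 difference from memory cells had a 95% interval from -1.65 to -0.34 (adjusted p = 0.0326); it was lost with quantile normalization (-0.64, adjusted p = 0.0826), with cyclic loess (0.0522), with the lower floor (0.0637), with the mean or median of probe sets (0.0678 and 0.107), and without any of the 6 arrays (0.0666 to 0.191). Against regulatory cells Smad7 missed the threshold at adjusted p = 0.0510 and passed under 7 alternatives (0.0204 to 0.0426). The second Smad7 probe set read 157.0 and 116.6, 100.5 and 260.8, and 243.2 and 199.2, so that activated and memory cells overlapped there. Skil, the gene of the corepressor SnoN, read 1134 and 1156, 2538 and 2493, and 2943 and 3838, a difference of -1.13 between activated and memory cells (adjusted p = 0.00924) and of -1.55 against regulatory cells (adjusted p = 0.00472). These calls were lost without any activated or memory array for the former (-1.25 to -1.02) and without any activated or regulatory array for the latter (-1.74 to -1.36). Without a regulatory array the latter contrast lost the calls of all genes. Tgif1, the other corepressor, read 659.8 and 663.5, 519.2 and 300.6, and 863.3 and 887.0, so that here memory cells were lowest and regulatory cells highest. No Tgif1 contrast passed, the nearest being activated minus memory at 0.74 (adjusted p = 0.0890), which did pass with quantile normalization (1.01, adjusted p = 0.0433), cyclic loess (0.0418), the floor of each array (0.0457) and without the control memory array (0.0445).

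Both response genes were below the floor in activated cells. Itgae, which encodes the alpha chain of CD103 that binds E-cadherin, read 20.2 and 32.6 there, below the floor on both arrays. It read 2287 and 1069 in memory cells and 3328 and 4051 in regulatory cells, and the 3 populations did not overlap. Because the activated arrays are only bounds, the differences are stated against the floor: at least 32.8-fold lower than in memory cells (adjusted p = 0.00238) and at least 77.1-fold lower than in regulatory cells (adjusted p = 0.00214). The former call was lost without the control regulatory array (log2 difference -5.04). The latter was lost without either regulatory array (-6.69 and -5.85), as were the calls of all genes in that contrast. The second Itgae probe set gave 18.5 and 7.1, 941.6 and 383.5, and 1574 and 1466, and ranked the populations likewise. Regulatory cells read higher than memory cells by 1.23 in log2 signal (adjusted p = 0.185). Tgfbi, which encodes a secreted matrix protein named for its induction by the ligand, read 2.1 and 14.5, 380.9 and 94.6, and 196.5 and 153.5. All 4 of its probe sets were below the floor on both activated arrays. Memory and regulatory ranges overlapped on the main probe set alone. Each of the others read higher in memory than in regulatory cells, without overlap. They gave 233.2 and 87.8 against 69.1 and 53.2, and 412.3 and 145.0 against 48.4 and 111.8. The last gave 647.5 and 315.2 against 103.8 and 27.6. The regulatory minus memory difference of Tgfbi went from -0.13 to -1.45 with the mean of probe sets, and was called in neither. Activated cells were at least 3.99-fold lower than memory cells (adjusted p = 0.0441), a call lost without any array but the Furin cKO memory array (0.0792 to 0.238), and with quantile normalization (0.0829), cyclic loess (0.0761), the higher floor (0.157), the median of probe sets (0.0735), no genotype term (0.0620) and exchanged memory labels (0.0733). Against regulatory cells the bound was 3.65-fold (adjusted p = 0.0522). It passed with the lower floor (0.0225), the floor of each array (0.00594), a variance trend (0.0428) and without the control memory array (0.0321), the Furin cKO memory array (0.0284) or both (0.00235), and with the higher floor the difference was -0.26 (0.585).

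**Figure D2:**
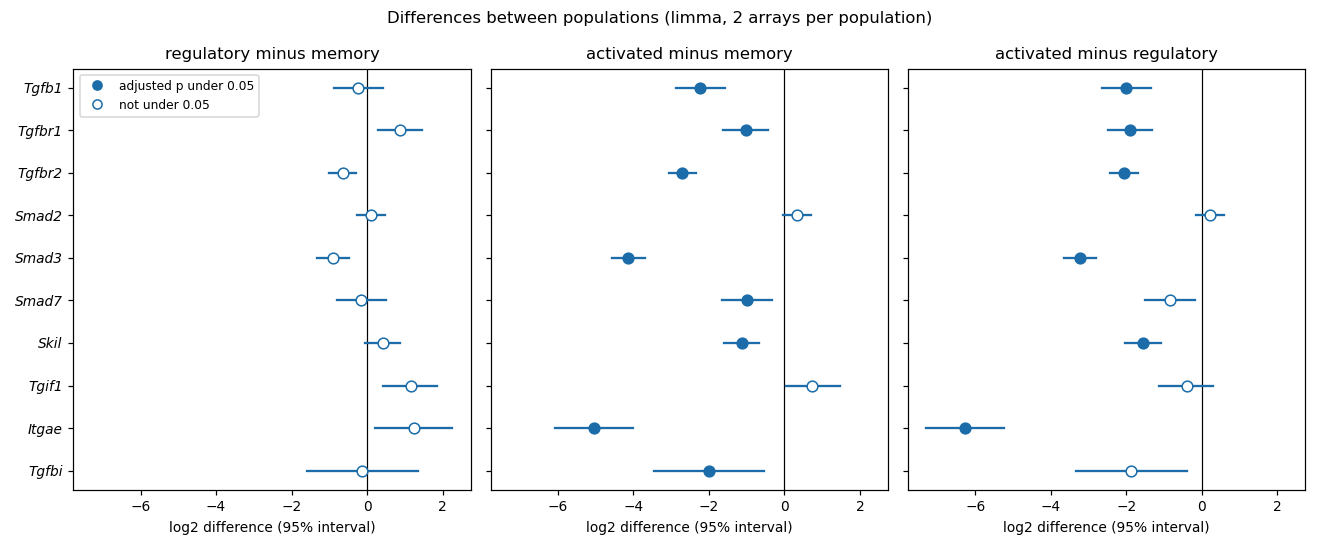
Log2 difference between populations for each gene (horizontal axis) with its 95% interval from limma, 2 arrays per population; filled circles have an adjusted p under 0.05. Filled circles number 0 for regulatory minus memory, 8 for activated minus memory and 6 for activated minus regulatory, and all lie left of 0.

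Between the fresh populations 0 of the 10 genes passed. This was so for all genes: limma called 0 of 15811 in this contrast, the smallest adjusted p being 0.0518, although 3359 genes (21.2%) had an unadjusted p under 0.05, among them 5 of the 10 (Tgfbr1, Tgfbr2, Smad3, Tgif1 and Itgae). They had no common direction, with Tgfbr1, Tgif1 and Itgae brighter in regulatory and Tgfbr2 and Smad3 brighter in memory cells, on both arrays of the population in each case. Smad3 had a regulatory minus memory difference of -0.90 (adjusted p = 0.0926), which passed with the floor at the 60th percentile (adjusted p = 0.0486) and turned to 0.53 with the median of probe sets (adjusted p = 0.369). Tgfbr2 passed with no genotype term (adjusted p = 0.0484).

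The wider pathway was read from lists of 78 genes by role, which include the 10 genes, and 72 were tested. Of these 30 were lower and 12 higher in activated than in memory cells, and 24 lower and 16 higher than in regulatory cells. The median differences were -0.35 and -0.45 beside -0.21 and -0.23 over all genes. The 30 and 24 include the 8 and 6 of the 10 genes called lower above, so they partly repeat that result. The 42 and 40 called are to be read beside the 44.3% and 44.6% of all genes called. The counts by role below are to be read beside 26.9% of all genes lower and 17.3% higher against memory cells. Against regulatory cells these shares were 26.5% and 18.1%, and several of the counts by role lie near them. Among ligand and activation genes, 3 of 11 were lower in activated cells in each contrast and 0 were higher: Itgb8, the integrin chain that frees latent TGF-beta, read 27.7 and 41.0 in activated, 476.3 and 415.1 in memory, and 1037.5 and 1331 in regulatory cells, at least 9.34-fold and at least 24.7-fold lower in activated cells. Its partner Itgav read 2006 and 2589, 2314 and 2374, and 3541 and 4507, and was 1.75-fold lower in activated than in regulatory cells (adjusted p = 0.0191). Tgfb3, another ligand, was above the floor on the memory arrays alone (151.4 and 142.9), and Tgfb2 on the Furin cKO regulatory array alone (93.6). Among receptors, 4 of 11 were lower and 2 higher than in memory cells: Acvr2a, an activin receptor, was 3.39-fold lower (adjusted p = 0.00301), whereas the coreceptor gene Eng (endoglin) read 223.2 and 299.9 in activated cells against 56.6 and 16.5 in memory cells, 4.98-fold higher with the second of these raised to the floor. Among Smads and transducers, 5 of 11 were lower and 2 higher, and Map3k7, the gene of the kinase TAK1, was 3.65-fold higher (adjusted p = 0.00235). Among inhibitors and corepressors, 4 of 14 were lower and 4 higher. Ski, the close relative of Skil, was 4.26-fold lower and the ubiquitin ligase gene Smurf1 3.12-fold lower, while Strap and Ppm1a, which restrain the receptor and the Smads, were 2.64-fold and 1.90-fold higher.

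Genes known to be induced by TGF-beta were the list with the most lower members, 12 of 18 tested against memory cells with 2 higher, beside 26.9% and 17.3% of all genes. Against regulatory cells 8 were lower and 3 higher, beside 26.5% and 18.1%. The 12 include Foxp3, at least 25.9-fold lower than on the memory arrays, whose levels went against the labels as given above. Nt5e, the ectonucleotidase CD73, read 56.6 and 38.5 in activated, 3669.9 and 1868 in memory, and 4059 and 5464 in regulatory cells, 50.4-fold and 90.7-fold lower in activated cells with the dimmer activated array raised to the floor (adjusted p = 0.00210 and 0.00208). Id2, an inhibitor of E proteins, read 16360 and 14505 in memory cells against 546.7 and 738.4, 24.2-fold higher there. Ldlrad4, a Smad inhibitor, was at least 6.76-fold, Ahr (the aryl hydrocarbon receptor) 6.38-fold and Klf10 (TGF-beta inducible early gene) 5.24-fold lower than in memory cells. The cell cycle inhibitor gene Cdkn1a went the other way, at 8879 and 8979 in activated and 65.4 and 165.2 in memory cells, 85.9-fold higher, and so did Id3 at 4.64-fold. The 12 also include Itgae, Tgfbi, Smad7 and Skil, which are counted among the 10 genes above, and Smad7, Skil and Pmepa1 stand in 2 lists each. Of 10 genes known to be repressed by TGF-beta in T cells, 4 were lower and 2 higher than in memory cells (26.9% and 17.3% of all genes), and 2 were lower and 4 higher than in regulatory cells (26.5% and 18.1%). Against memory cells Il4 was at least 16.3-fold, Gata3 7.33-fold, the perforin gene Prf1 5.51-fold and Tbx21 2.18-fold lower, and Il2 and Myc were 14.7-fold and 5.57-fold higher.

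The genotype comparison rests on 1 array against 1 in each population, so the folds within a population have no spread and no p-value. In memory cells all 10 genes read lower on the array labelled Furin cKO, with a median log2 fold of -0.43 beside -0.01 over the 14235 genes measured, 50.7% of which read lower and 49.2% higher. In activated cells the 8 genes above the floor read higher, but by at most 1.37-fold and with a median of 0.03, where 48.9% of all genes read higher and 51.0% lower. Of the 8, 0 passed 2-fold, as 0.390% of all genes did upward and 0.372% downward. Of 4 other probe sets that could be compared in activated cells, 1 had the direction of the main one and 3 the opposite. With the mean or median of probe sets 2 genes read lower there. In regulatory cells 6 read higher and 4 lower, with a median of 0.02, beside 48.0% and 51.9% of all genes. The memory count depended on the choice of probe set: with the mean of each gene's probe sets 6 of 10 read lower and the median was -0.11, and with their median 6 and -0.18. Of the 12 other probe sets that could be compared in memory cells, 7 had the direction of the main one and 5 the opposite. The 5 were dimmer probe sets of Tgfbr1, Tgfbr2, Smad2, Smad3 and Smad7.

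**Figure D3:**
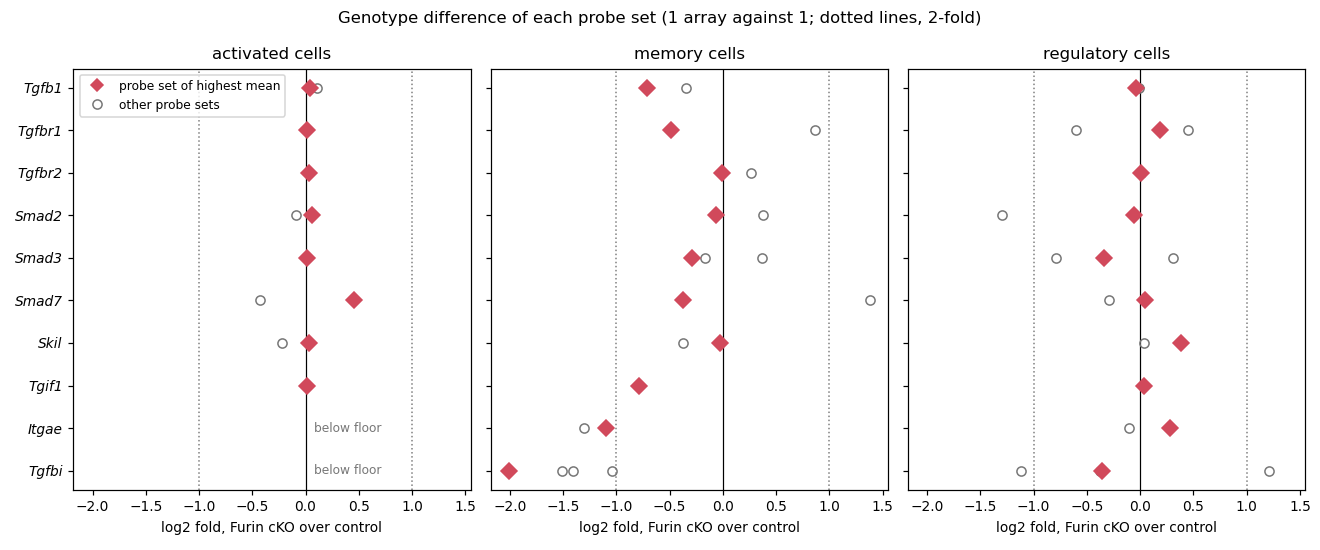
Log2 fold of the Furin cKO over the control array (horizontal axis) for each TGF-beta gene in the 3 populations; diamonds are the probe set with the highest mean signal and open circles the other probe sets above the floor. In memory cells the diamonds lie at or left of 0, with Tgfbi at -2.01 and Itgae at -1.10, and the open circles of Tgfbi, Itgae, Tgfb1 and Skil lie on the same side.

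Among the memory differences those of Tgfbi and Itgae passed 2-fold, as 3.64% of all genes did downward and 5.62% upward. Tgfbi read 380.9 and 94.6, 4.03-fold lower, and 35 of all genes (0.246%) read lower by as much or more. Its other 3 probe sets gave 2.66-fold, 2.84-fold and 2.05-fold lower, so that all 4 had the same direction. Itgae read 2287 and 1069, 2.14-fold lower, as 2.82% of genes did or more, and its other probe set 2.46-fold lower. Tgif1, which has 1 probe set, read 519.2 and 300.6, 1.73-fold lower. Tgfb1 read 2932 and 1788, 1.64-fold lower, a size that 8.54% of genes reached downward, and its other probe set read 1.27-fold lower. Tgfbr1 was 1.40-fold lower on its main probe set, but a dimmer probe set read 43.1 and 87.2, at least 1.83-fold higher. For Smad7 the main probe set was 1.29-fold lower and the other, at 100.5 and 260.8, was 2.60-fold higher. Smad3 was 1.22-fold lower. Smad2, Skil and Tgfbr2 were within 1.04-fold, and Tgfbr2 at 9381 and 9346 was the nearest to equal.

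In activated cells the transducers and receptors were nearly the same on both arrays. Smad3 read 212.6 and 213.5, Tgif1 659.8 and 663.5, and Tgfbr1 984.5 and 989.8, each within 1.01-fold. The largest difference was that of Smad7, at 308.9 and 424.3 or 1.37-fold higher, as 4.06% of genes did or more, but its second probe set went the other way (157.0 and 116.6). In regulatory cells the largest differences were those of Skil (2943 and 3838, 1.30-fold higher), Tgfbi (1.28-fold lower), Smad3 (1.26-fold lower) and Itgae (1.22-fold higher), all under 2-fold, which 3.14% of all genes passed upward and 2.12% downward. The 4 Tgfbi probe sets disagreed in regulatory cells, from at least 2.18-fold lower (103.8 and 27.6) to 2.31-fold higher (48.4 and 111.8). The second Itgae probe set read 1574 and 1466, 1.07-fold lower. The second Smad2 probe set, a dim one, read 194.7 and 79.0, 2.46-fold lower, where the main one was 1.04-fold lower.

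Over the 3 populations together, limma called 0 of the 10 genes for genotype and 0 of 15811 genes in all, with 444 genes (2.81%) at an unadjusted p under 0.05 and 0 of the 10 among them. The largest Furin cKO minus control difference was that of Tgfbi, -0.79 in log2 signal (95% interval from -1.99 to 0.41, adjusted p = 0.819), to which the activated pair adds 0 because both arrays were at the floor. For Tgfb1 the difference was -0.24 (95% interval from -0.77 to 0.29). For Tgfbr2 it was 0.01 (95% interval from -0.28 to 0.30) and for Smad2 -0.02 (from -0.32 to 0.28), so the former interval reaches 0.30 upward and the latter -0.32 downward. With the labels of the memory arrays exchanged, the sign turned for Tgfbi (0.55), Itgae (0.46), Tgif1 (0.28), Tgfb1 (0.23), Tgfbr1 (0.23) and Smad2 (0.02), and 0 of the 10 were called.

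The pathway lists, which include the 10 genes, were also read in the genotype comparison. In memory cells 47 of 70 measured pathway genes read lower and 23 higher (median -0.17), and 10 passed 2-fold upward and 5 downward. All of the 10 genes are among the 47, so this count partly repeats theirs. Over all genes in memory cells 50.7% read lower and 49.2% higher, and 5.62% passed 2-fold upward and 3.64% downward. In activated cells 31 of 57 pathway genes read higher and 26 lower, beside 48.9% and 51.0% of all genes, and in regulatory cells 33 of 68 read higher and 35 lower, beside 48.0% and 51.9%. Induced response genes read lower in memory cells for 14 of 18, with Tsc22d1 (2868 and 1324, 2.17-fold), Nt5e (1.96-fold) and Ldlrad4 (1.89-fold) beside Tgfbi and Itgae. The 14 also hold Smad7 and Skil, so here too the list overlaps with the 10 genes. The 4 that read higher were Cdkn1a (2.53-fold), Klf10 (1.41-fold), Ahr (1090.0 and 1304) and Runx3 (1.07-fold). In other roles Nedd4l, a ubiquitin ligase that acts on activated Smads, was 2.33-fold, the BMP receptor gene Bmpr2 1.82-fold and Nrros, which holds latent TGF-beta on myeloid cells, 1.73-fold lower. Zfyve9, the Smad anchor SARA, was 2.44-fold and Tab1, the partner of TAK1, 1.59-fold higher. Higher by bounds were 3 dim genes, Bmpr1a (at least 3.28-fold), Bambi (at least 2.12-fold) and Ltbp4 (at least 2.09-fold). In regulatory cells Ltbp3, which binds latent TGF-beta, read 54.8 and 167.7, 3.06-fold higher, Cdkn1a 1.98-fold higher and Bmpr1a 1.70-fold higher.

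Genes that TGF-beta is known to repress showed no common direction. In memory cells 3 of 10 were higher by over 2-fold, Ifng (1114 and 4675, 4.20-fold), Gzmb (3.90-fold) and Il2 (3.45-fold), while 7 read lower, with Il4 at 3.29-fold. Of all genes in memory cells, 5.62% passed 2-fold upward and 3.64% downward, and 50.7% read lower. In activated cells Ifng (256.6 and 1695, 6.61-fold), Gzmb (1.90-fold) and Tbx21 (1.77-fold) read higher, with 6 of 9 higher in all, beside 48.9% of all genes. In regulatory cells 5 read higher and 5 lower, beside 48.0% and 51.9% of all genes. Their median there was 0.03, and Ifng read 164.4 and 157.0.

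**Figure D4:**
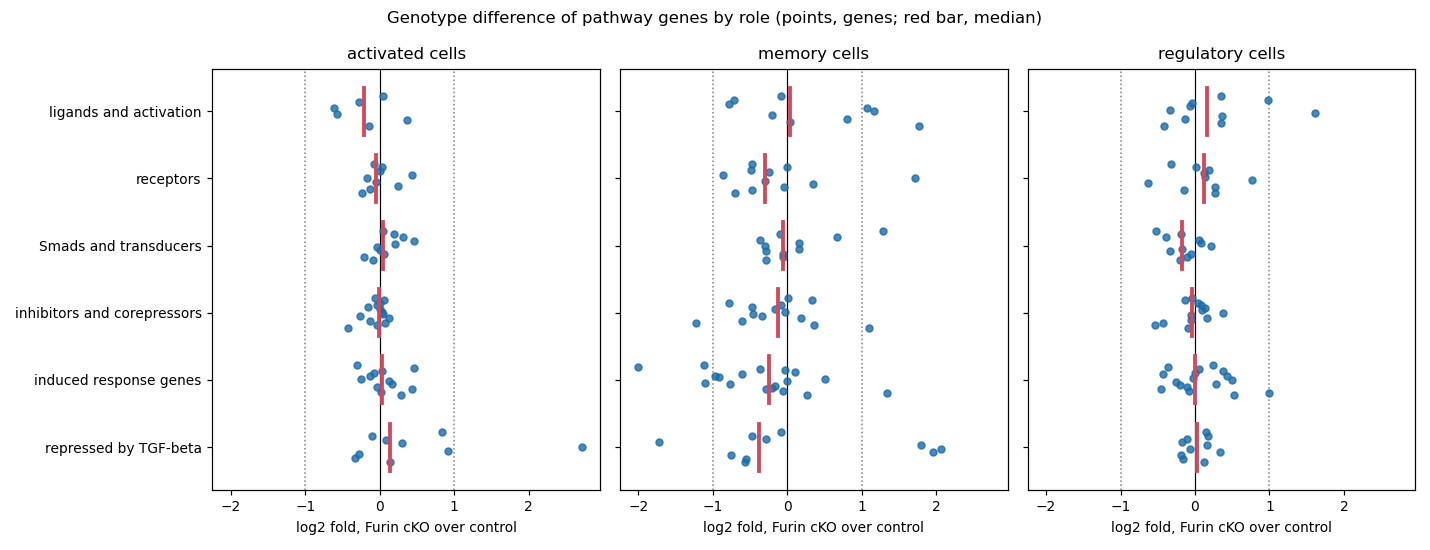
Log2 fold of the Furin cKO over the control array (horizontal axis) for the pathway genes by role in the 3 populations; points are genes above the floor on at least 1 array of the pair, a red bar is the list's median and dotted lines mark 2-fold. The widest scatter is in memory cells, where the induced response genes have a median of -0.24 and the repressed genes one of -0.38 with 3 points past 2-fold on the right.

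Genes with the profile most like that of a member were found by the root mean square difference of log2 signals, centred per gene over the 6 arrays, among 7663 genes at or above a signal of 145 on every array. Nearest to Tgfb1 were Pcif1 (0.08), the pathway's own corepressor gene Ski (0.10), Sh2b1 (0.12) and Kmt2e (0.13), where Tgfb1 itself varied by 1.02. Ski read 366.6 and 379.2, 1865 and 1355, and 1357 and 1314. It had the same order of arrays as Tgfb1 in the memory pair, which is part of what the likeness was measured on. Nearest to Itgae were Samd9l (0.59), Ikzf2 (0.65), Ltb (0.72) and Itga4 (0.77), of an own variation of 2.73. Nearest to Tgfbi were Pitpnm2 (0.22), Abca1 (0.33), Sh3pxd2a (0.36) and Rnf144a (0.36), of 1.09.

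Markers of other cell types differed between the 2 memory arrays, 1 of each genotype label. Of all genes measured in memory cells, 50.7% read lower and 49.2% higher on the Furin cKO array. Itgae is known in dendritic cells and CD8 T cells as well, Tgfbi in macrophages, and Tgfb1 in many leukocytes and platelets. Of 12 myeloid and dendritic markers 8 read lower on the Furin cKO memory array and 4 higher (median log2 fold -0.37), and their summed signal was 21248 and 12862 on the memory arrays, 5729 and 5902 on the regulatory arrays and 2098 and 2303 on the activated arrays. Siglech, which defines plasmacytoid dendritic cells, read 2943 and 1111, and Itgax, which encodes CD11c, 938.0 and 557.2, while the 4 that read higher were the macrophage and granulocyte gene Lyz2 (917.1 and 1026), Fcgr3 (47.3 and 143.0), Itgam (44.8 and 63.9) and Xcr1 (33.8 and 62.7). The regulatory cell markers read lower for 7 of 7, with sums of 34550.4 and 29179. Of the CD8 markers Cd8a read 216.5 and 264.3 and Cd8b1 853.7 and 432.7, on cells sorted for CD4. Granulocyte markers read higher for 7 of 8, with sums of 909.6 and 7573 (1302 and 2736 on the regulatory arrays). B cell markers read higher for 5 of 7 (2736 and 4058), plasma cell markers for 4 of 5 (4982 and 20323) and platelet markers for 4 of 7 measured, with sums of 721 and 883. Among these Pf4 read 45.7 and 104.1, Itga2b 202.3 and 324.6, and Gp1bb 152.7 and 108.0. Erythroid markers summed to 841 and 295, and NK cell markers to 392 and 690.2. The part of these cells in the memory differences of Tgfbi, Itgae and Tgfb1 was not tested, and neither was that of the beta-actin ratio.

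**Figure D5:**
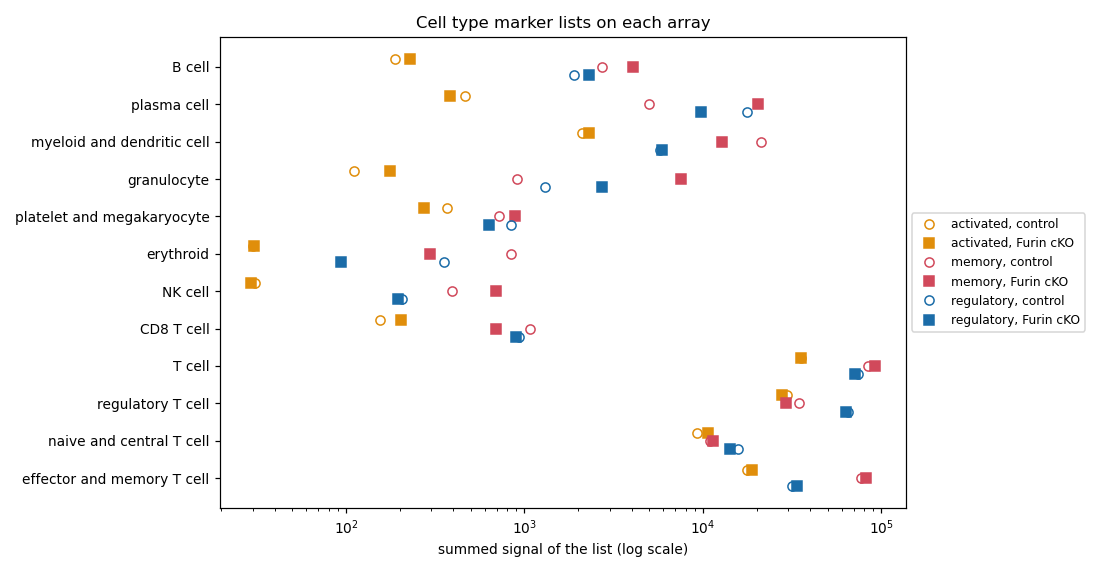
Summed signal of each cell type marker list (horizontal axis, log scale) on each array; open circles are control and filled squares Furin cKO arrays, coloured by population. In memory cells the granulocyte sum is 909.6 and 7573, while the myeloid and dendritic sum is 21248 and 12862 (control first).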

How the data were processed

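Total RNA of 6 samples was hybridised as biotinylated cRNA to Affymetrix 3' expression arrays, per the labels. The deposited values are intensities on a linear scale, and the submitters' processing notes name MAS5, with no version. The trimmed mean of each array (2% of probe sets cut at each end) was 500, so the authors had scaled the arrays. Of 45037 non-control probe sets 34945 carry 1 gene symbol, 932 several and 9160 none, and only the first were named. Entrez identifiers of 34741 matched RefSeq GRCm38.p6, used for names. Signals below the floor were raised to it before log2, and pairs with both arrays below it gave no fold. limma 3.58.1 in R 4.3.3 was run with empirical Bayes moderation on all 6 arrays, and was tested on simulated data. The number of arrays limits the precision. The labels name no separate animals. The p-values therefore measure only how unevenly the genotype difference fell across the populations, which may be partly technical, and not the spread between animals.

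The genes, lists and tests were chosen with earlier results of these data known. Named are the 10 genes and Furin, pathway genes with a genotype difference of at least 1.5-fold and a brighter array at or above 145 (or a bound of at least 2-fold), up to 10 pathway genes each way with an adjusted p under 0.05 per contrast, the 4 genes of nearest profile to Tgfb1, Itgae and Tgfbi, and marker genes. Pathway genes given as partners of a member, such as Smad4, Itgav, Tgfb2, Tgfb3 and Smurf1, were named after their values were seen. Lists had no set test. Alternatives were quantile normalization, cyclic loess, 3 other floors, the mean or median of probe sets, no genotype term, a variance trend, exchanged memory labels and leaving out arrays or populations.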

Additional observations from a re-analysis of the deposited data

Results flagged for a closer look

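Itgae read lower on the Furin cKO array in memory cells (log2 fold -1.10) and higher in regulatory cells (0.28), both by at least 1.2-fold. The difference between populations was not tested, because each rests on 1 pair of arrays, and the second Itgae probe set read lower in both (-1.30 and -0.10).

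Smad7 read higher on the Furin cKO array in activated cells (log2 fold 0.46) and lower in memory cells (-0.37), again an untested difference. Its second probe set had the opposite sign in each (-0.43 and 1.38).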

How the results depend on the processing

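No paired analysis was possible because each group holds 1 array and the labels give no replicate numbers. With the mean or the median of probe sets, 2 genes read lower in activated cells in place of 0, 6 in memory cells in place of 10 (medians -0.11 and -0.18 in place of -0.43), and the regulatory median was -0.01 in place of 0.02. The memory fold of Tgfbr1 turned to 0.13 and 0.87 and that of Smad7 to 0.50 under these settings, because dimmer probe sets went the other way. The Smad3 regulatory minus memory difference turned to 0.53 with the median of probe sets. With exchanged memory labels the genotype difference of Tgfbi turned to 0.55. Called in regulatory minus memory was 1 of the 10 with a 60th-percentile floor and 1 with no genotype term; over all genes these settings called 448 and 653, the floor of each array 217, a variance trend 155 and the mean of probe sets 21. Activated minus memory called 5 of the 10 with the median of probe sets, and from 3 to 6 when 1 array was left out; activated minus regulatory called from 0 to 7. Such fits have 1 residual degree of freedom and assume that the lone array varies like the others; all genes then gave 1935 to 4178 and 0 to 5969 calls. The counts of 0 were those without a regulatory array. Without the whole remaining population, a choice made after seeing the data, 8 of the 10 passed in each activated contrast. These fits too have 1 residual degree of freedom, so their counts are no firmer than those from all arrays. The floor of each array called 11186 and 11277 genes. The genotype term called 0 of the 10 under each alternative run. A signal below 47.6 has no order.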

Other observations

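When candidates for a like profile were widened, after the values were seen, to the 15811 genes above the floor on some array, Nt5e (CD73) was nearest to Itgae, with a root mean square difference of 0.27 in log2 signal where Itgae varied by 2.73. Nt5e read 56.6 and 38.5 in activated, 3669.9 and 1868 in memory, and 4059 and 5464 in regulatory cells. Both genes read lower on the Furin cKO array in memory and higher in regulatory cells. Because Nt5e was chosen for its likeness over these same arrays, the shared directions are no separate result. The second Itgae probe set read lower in regulatory cells (log2 fold -0.10). Prdm1, which encodes the repressor Blimp-1, was also near (0.52), at 26.4 and 18.5, 1166 and 1312, and 2008 and 1969. The nearest to Tgfbi remained Pitpnm2, which read 1487 and 365.3 in memory cells.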
